A study of Mus musculus with 13 samples.

Results

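The effect of a high-protein diet on inguinal white adipose tissue of mice under sleep fragmentation was read from RNA-seq of 10 animals, 5 on the high-protein diet (SF_HPD) and 5 on chow (SF_ConD). A gene entered the comparison when it reached an FPKM (fragments scaled by gene length and library total) of at least 1 in at least 3 of these 10 libraries, which kept 13730 of the 54532 genes in the table, 11857 of them protein coding. The series holds 13 libraries in all. The other 3 (SC_ConD) came from mice with normal sleep on chow and entered no test here. Both groups compared had disturbed sleep, and the labels set them apart by diet only: the SF_HPD diet took 12% of its calories from fat, 50% from protein and 38% from carbohydrate, and the sources used here do not give the composition of the chow. Allotment was random with matched weights, and each library came from the tissue of 1 mouse after a fast of 12 h. The sources used here do not give strain, age, sex or the length of the treatment. Libraries are called by group and number below (SF_HPD 1 to 5 and SF_ConD 1 to 5).

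The inguinal pad is a subcutaneous fat depot that holds adipocytes, stromal progenitors that lay down collagen, vessels and a lymph node, and in mice it lies beside mammary ducts and the muscles of the groin. Adipocytes make fatty acids from glucose, store and release triglyceride, take up and break down branched-chain amino acids, and secrete hormones such as leptin and adiponectin. Insulin and dietary carbohydrate raise the genes of fatty acid synthesis, and amino acid supply is read in cells by the mTORC1 complex when it is plentiful and by the transcription factor ATF4 when it is short. Adipose tissue also runs a circadian clock, whose output factors such as DBP swing widely over the day.

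Libraries differed widely in which cells' transcripts they held, and 1 of them stood apart. In SF_HPD 2, 320 genes were more than 4-fold above every other library, against 64 in SF_HPD 4, 12 in SF_ConD 3 and at most 9 in any other. Uroplakins, the membrane proteins of the bladder lining, were read there at 6966 FPKM (Upk3a), 3269 FPKM (Upk1a), 1881 FPKM (Upk1b), 1240 FPKM (Upk2) and 248 FPKM (Upk3b), and the highest value of any of these genes in the other 9 libraries was 51.0 FPKM. The adipocyte hormone gene Adipoq was at 26.1 FPKM in SF_HPD 2 and at 666 FPKM or more elsewhere, and the leptin gene was listed at 0. The 20 adipocyte markers averaged 4.13 on the log2(FPKM + 1) scale in that library and 7.46 to 9.01 in the others. All 20 still reached 1 FPKM or more in SF_HPD 2, and Fabp4 was at 826 FPKM there, against 781 FPKM in SF_HPD 4. The label of white adipose tissue was therefore only partly borne out by these markers in SF_HPD 2, and many results are also given without it. A gene given with no such value may still have moved. Without SF_HPD 2, for example, Cox8b went from a log2 fold change of -1.74 to -0.59 and Retn from -1.26 to -0.47. Arg1, Clec3b, Acy1 and Arhgap10 were then above an unadjusted limma p of 0.05. The uroplakins were chosen after their values were seen.

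Other markers of neighbouring tissue split the libraries within both diets. Skeletal muscle markers averaged 8.2 in SF_HPD 4 and at most 1.96 elsewhere, with the muscle actin gene Acta1 at 6792 FPKM in SF_HPD 4. B cell and lymph node markers averaged 4.57 to 5.64 in 5 libraries (SF_HPD 4 and 5 and SF_ConD 1, 4 and 5) and at most 1.36 in the other 5 (SF_HPD 1, 2 and 3 and SF_ConD 2 and 3). In SF_HPD 2, 14 of these 19 markers were at 0, Ms4a1 among them, and in SF_ConD 3 it was 8 of 19. Mammary and other epithelial markers averaged 0.453 to 4.0 in SF_HPD and 3.04 to 4.68 in SF_ConD, with 12 of 24 at 0 in SF_HPD 4. Recovered depth was 14815592 to 18303302 reads per library. Longer genes were read higher, relative to the other libraries, in SF_HPD 1, SF_HPD 4 and SF_ConD 3 (rank correlations of 0.489 to 0.574). In the other 7 these correlations were -0.440 to 0.108, so in some of them longer genes were read lower. Reads of mitochondrial genes took 2.82% to 33.2% of a library. In bulk tissue, fewer cells of a type and less RNA per cell cannot be told apart.

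**Figure D1:**
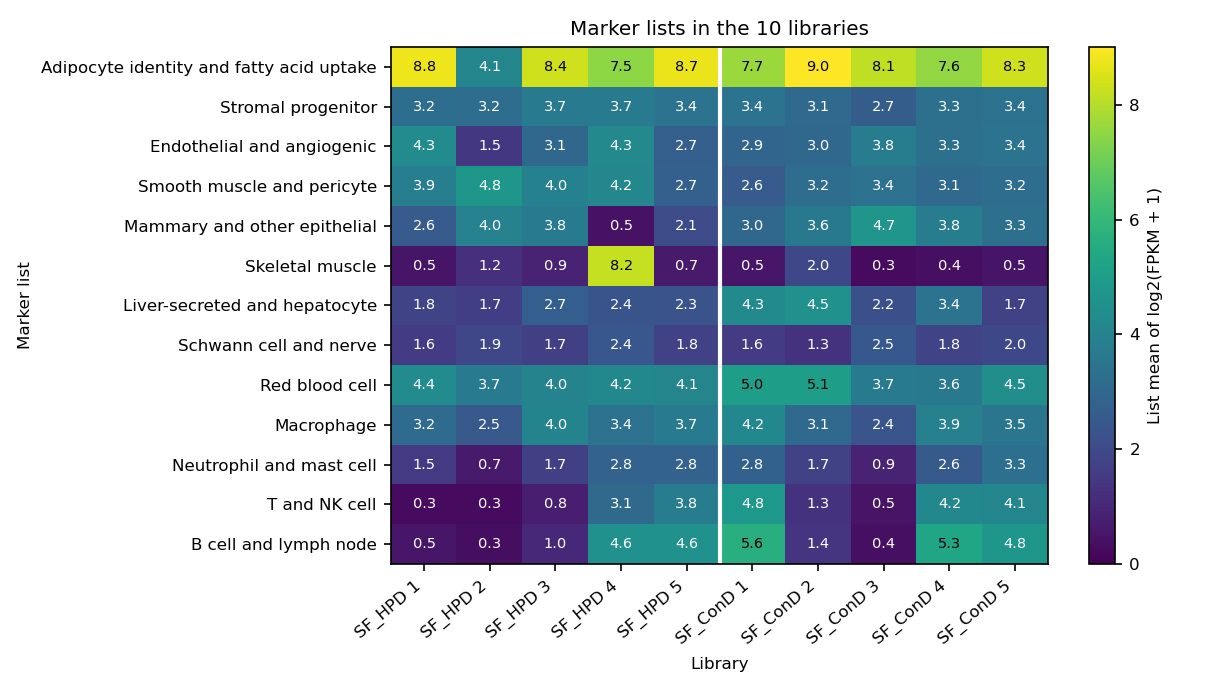
Mean of log2(FPKM + 1) over the members of 13 marker lists (rows) in the 10 libraries (columns), with SF_HPD left of the white line and SF_ConD right of it. The adipocyte row is at 4.1 in SF_HPD 2 and at 7.5 or more elsewhere, the skeletal muscle row stands out in SF_HPD 4, and the T cell and B cell rows are high in 5 libraries from both groups.

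No gene passed the test. Of 13730 genes, 0 were called higher (0.0%) and 0 lower (0.0%) in SF_HPD at a Benjamini-Hochberg adjusted p under 0.05 in limma, and the smallest adjusted p was 0.779. An unadjusted p under 0.05 was reached by 130 genes that were higher (0.947%) and 171 that were lower (1.25%), or 301 in all (2.19%), where 5% of the genes would be 686.5. All 5 SF_HPD libraries lay above all 5 SF_ConD libraries for 29 genes (0.211%) and below them for 30 (0.218%). The median log2 fold change over all genes was 0.01, and 51.3% of genes were higher on average in SF_HPD. The test was wide: the median SE was 0.39, and the 95% interval of 59.3% of genes reached a log2 change of 1 in size. A change of that size was therefore not excluded for these genes. Limma-voom on the recovered reads also called 0 genes, with 123 higher and 149 lower at an unadjusted p under 0.05 and a smallest adjusted p of 0.336. It used the library totals implied by the FPKM values, so it kept the scaling of the deposited values. Without SF_HPD 2, 0 genes were called and 272 (1.98%) were higher and 267 (1.94%) lower at an unadjusted p under 0.05. No gene named below passed the adjusted test, in which each had an adjusted p that rounds to 1, and words such as higher and lower refer to group means on the log2(FPKM + 1) scale. Where a gene is given only a value with its SE, the value is its log2 fold change on that scale.

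**Figure D2:**
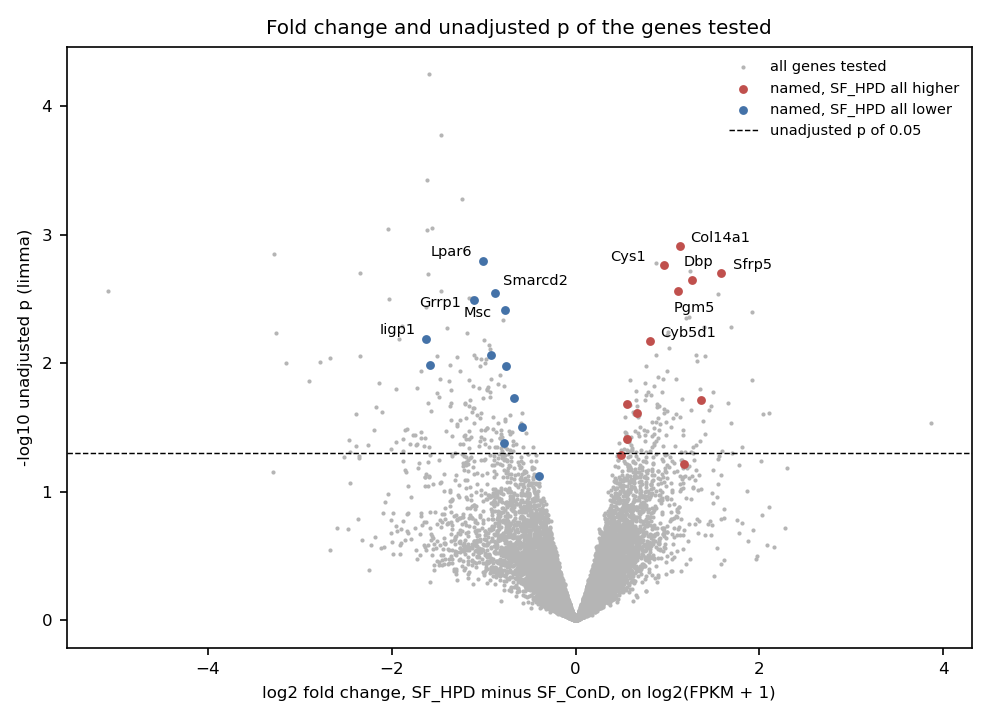
Log2 fold change (SF_HPD minus SF_ConD, on log2(FPKM + 1)) against -log10 of the unadjusted limma p for all 13730 genes. Coloured points are the 24 genes named because the groups did not overlap, labelled where p is smallest among them, and the dashed line marks an unadjusted p of 0.05, above which 130 genes lay to the right and 171 to the left.

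The groups did not overlap for the 24 genes described next, the 12 of smallest p in each direction among those averaging 2 FPKM or more, leaving out unnamed models and pseudogenes. Those higher in SF_HPD included a collagen, secreted Wnt-binding proteins and a clock output factor. Col14a1 (chr15:55307750-55520803), the gene of a collagen that sits on the surface of other fibrils, was at 3.61, 2.49, 2.82, 5.21 and 2.27 FPKM in SF_HPD 1 to 5 and at 0.367, 0.783, 0.917, 0.994 and 1.6 FPKM in SF_ConD 1 to 5. Every SF_HPD value lay above every SF_ConD value, with the narrowest gap between SF_HPD 5 and SF_ConD 5 (log2 fold change 1.14, SE 0.26). The 3 mice with normal sleep read 1.57, 3.32 and 2.32 FPKM. Sfrp5 (chr19:42197971-42202252), a secreted frizzled-related protein that binds Wnt ligands and is made by adipocytes, was at 4.14, 1.4, 7.74, 6.1 and 1.43 FPKM in SF_HPD and at 0.626, 0.317, 0.385, 1.07 and 0.275 FPKM in SF_ConD (log2 fold change 1.58, SE 0.39). SF_HPD 2 and 5 were the low SF_HPD libraries, and SF_ConD 4 came closest to them. Its relative Sfrp4 was at 0.863, 1.08, 12.6, 2.61 and 1.23 FPKM in SF_HPD and 0.395, 0.673, 0.113, 0.0828 and 0.354 FPKM in SF_ConD (log2 fold change 1.36, SE 0.50). The highest Sfrp4 value was in SF_HPD 3, and the log2 fold change without that library was 0.85.

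Dbp, described with the clock below, was the most abundant of these genes. Cys1, which encodes a protein of the primary cilium, was at 1.9, 3.72, 3.43, 2.63 and 3.18 FPKM in SF_HPD and 0.716, 1.48, 0.85, 0.737 and 1.41 FPKM in SF_ConD (log2 fold change 0.96, SE 0.23). Pgm5, a phosphoglucomutase relative found at muscle cell adhesions, was at 4.1, 8.64, 4.11, 6.07 and 2.37 FPKM against 1.65, 1.3, 1.95, 1.52 and 1.81 FPKM (log2 fold change 1.11, SE 0.29). Its highest value was in SF_HPD 2, and the log2 fold change without that library was 0.92 (SE 0.25). Cyb5d1, a gene with a cytochrome b5 domain, was at 8.26, 10.3, 10.5, 9.28 and 10.9 FPKM against 3.62, 6.68, 4.72, 7.98 and 3.85 FPKM (log2 fold change 0.81, SE 0.24). Cyb5r1, a cytochrome b5 reductase, Arhgap10, a GTPase-activating protein, and Mosmo, a modulator of hedgehog signalling, had log2 fold changes of 0.55, 0.56 and 0.50. Rnd3, an atypical small GTPase, was at 9.49, 4.56, 5.9, 5.32 and 3.35 FPKM against a narrow 3.13, 2.83, 3.33, 3.16 and 2.83 FPKM. P2rx1, an ATP-gated channel, rested on SF_HPD 2 for its size, where it was at 20.9 FPKM, since the log2 fold change was 1.18 with that library and 0.56 without it.

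Among the 12 genes named as lower in SF_HPD, the smallest p belonged to Lpar6 (chr14:73237895-73243294), a receptor for lysophosphatidic acid. It was at 5.74, 6.61, 9.66, 6.95 and 7.9 FPKM in SF_HPD and at 13.7, 20.6, 14.4, 11.3 and 20.3 FPKM in SF_ConD (log2 fold change -1.01, SE 0.24), and the highest SF_HPD value (SF_HPD 3) was still below the lowest SF_ConD value (SF_ConD 4). In the 3 mice with normal sleep it was at 13, 9.97 and 21.9 FPKM. Smarcd2 (chr11:106263179-106272972), a subunit of SWI/SNF chromatin remodelling complexes, was at 18.8, 24, 21, 17.7 and 17.8 FPKM against 31.5, 34.9, 45.8, 38.3 and 36.7 FPKM (log2 fold change -0.88, SE 0.23). Both groups were tight for this gene, and SF_HPD 2 had the highest SF_HPD value. Msc, which encodes the transcription factor musculin, was at 1.56, 1.63, 1.73, 1.53 and 1.82 FPKM against 4.31, 4.05, 3.92, 3.28 and 2.39 FPKM (log2 fold change -0.77, SE 0.21). Grrp1 was at 18.6, 11.9, 19.6, 10 and 25.9 FPKM against 42.5, 33.8, 30.5, 33.6 and 42.5 FPKM (log2 fold change -1.11, SE 0.30).

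Of the 26 members kept of the interferon-stimulated list described below, 0 were without overlap, and Iigp1, Ly6e and Cmpk2 are not members of it. Iigp1, an interferon-inducible GTPase, was at 8.15, 1.7, 11.4, 11.5 and 12.5 FPKM in SF_HPD and 26.6, 20.1, 47.4, 33.4 and 13.8 FPKM in SF_ConD (log2 fold change -1.62, SE 0.48). Ly6e, a membrane-anchored protein induced by interferon, was at 71.2, 21, 121, 101 and 83.7 FPKM against 246, 147, 304, 266 and 135 FPKM (log2 fold change -1.58, SE 0.51). For both, SF_HPD 2 was the lowest library, and without it the log2 fold changes were -1.20 (SE 0.34) and -1.17 (SE 0.38). Ticam1, the adaptor TRIF of Toll-like receptors, was at 2.99, 1.93, 1.88, 3.23 and 1.31 FPKM against 4.13, 3.67, 6.03, 4.46 and 3.98 FPKM (log2 fold change -0.76, SE 0.25). Cmpk2, a mitochondrial nucleotide kinase induced by interferon, was at 2.89, 0.277, 2.83, 2.41 and 2.84 FPKM against 5.51, 3.23, 3.93, 4.92 and 3.59 FPKM, and its log2 fold change went from -0.78 to -0.47 without SF_HPD 2. Acy1, an aminoacylase that frees amino acids from their acetylated forms, was at 2.24, 1.25, 2.74, 1.86 and 2.21 FPKM against 2.81, 4.72, 4.19, 3.1 and 3.02 FPKM (log2 fold change -0.58, SE 0.24). The remaining named genes, Rundc3a, Hpcal1 and Tpra1, had log2 fold changes of -0.93, -0.67 and -0.40.

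**Figure D3:**
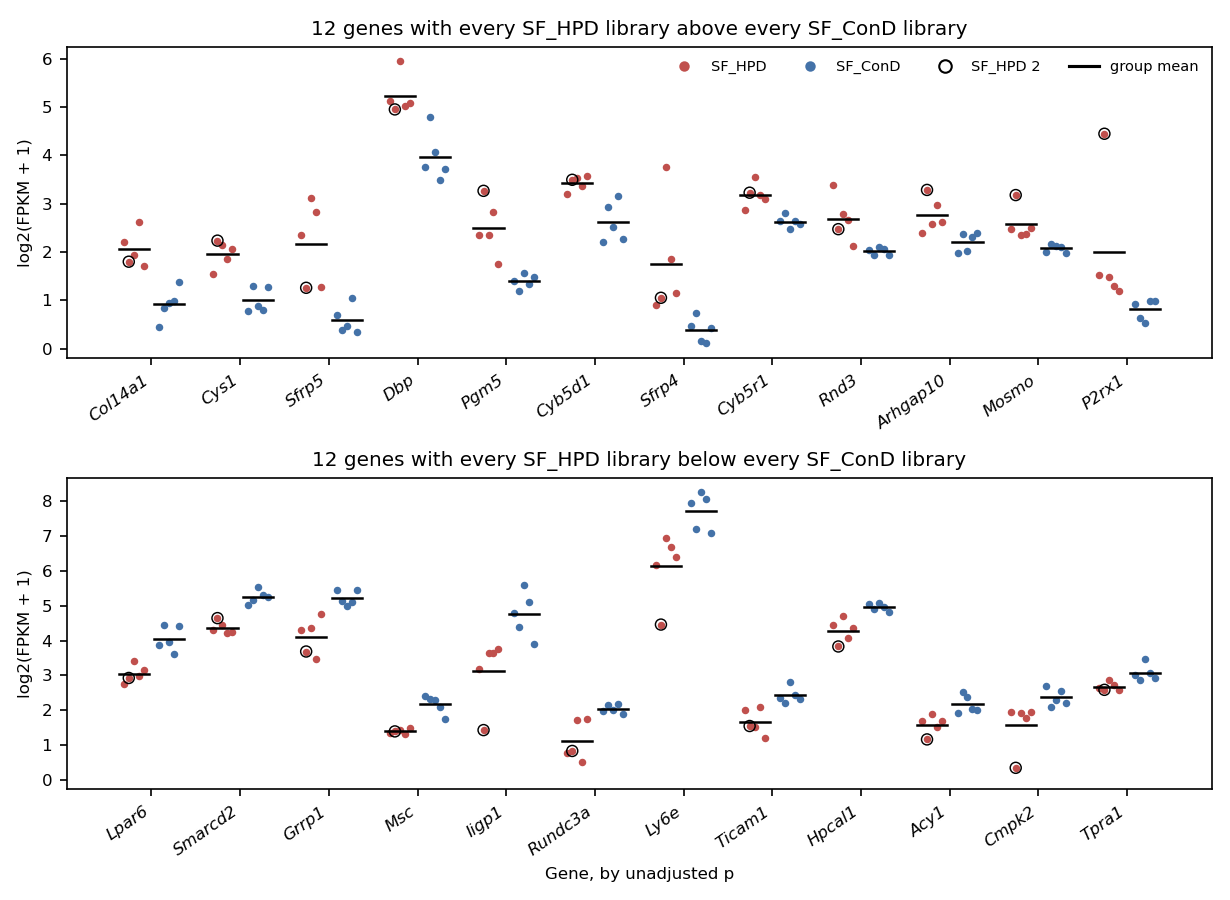
Log2(FPKM + 1) of the 24 named genes in each SF_HPD library (red) and SF_ConD library (blue), with black lines at group means and SF_HPD 2 ringed. The groups do not overlap because the genes were named for that; the ringed library carries the top value of P2rx1, Pgm5 and Mosmo and the lowest of Iigp1, Ly6e and Cmpk2.

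Leaving out SF_HPD 2 raised the number of genes without overlap to 74 higher (0.539%) and 77 lower (0.561%), again with 0 passing. Sfrp5 then had the smallest p, with a log2 fold change of 1.81 (SE 0.37). Ccdc80, a secreted protein of adipocytes and fibroblasts, was at 94.9, 114, 67.7 and 36.3 FPKM in SF_HPD 1, 3, 4 and 5 and at 20.1, 33.1, 19.6, 13.1 and 27 FPKM in SF_ConD (log2 fold change 1.69, SE 0.39). With SF_HPD 2, where it was at 4.87 FPKM, its log2 fold change was 0.96 (SE 0.72). Abcd2, a peroxisomal transporter of fatty acids rich in adipocytes, was at 101, 56, 53.1 and 43.8 FPKM against 15.3, 40.8, 18.8, 12.5 and 21.7 FPKM (log2 fold change 1.54, SE 0.38), but it was at 1.19 FPKM in SF_HPD 2. Among the 5 libraries low in lymph node markers, SF_HPD 2 included, its log2 fold change was -0.30. These genes were named by repeating the naming rule on 9 libraries after the data were seen. The ubiquitin ligase gene Wwp1 was at 11.6, 15.2, 21.2 and 9.75 FPKM against 4.82, 8.21, 8.18, 5.81 and 5.78 FPKM (log2 fold change 1.0, SE 0.27). Of the genes lower without SF_HPD 2, the desmosome gene Pkp3 was at 2.03, 2.67, 2.04 and 3.29 FPKM against 10.1, 4.15, 10.6, 10.2 and 6.47 FPKM (log2 fold change -1.35, SE 0.29). Crb3, a polarity gene of epithelia, was at 0.329, 3.36, 0.556 and 1.48 FPKM against 3.38, 5.65, 5.01, 6.7 and 4.51 FPKM and at 55.2 FPKM in SF_HPD 2, so its log2 fold change was -1.45 (SE 0.36) without that library and -0.51 (SE 0.87) with it.

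Collagen genes had a median log2 fold change of 1.13, against 0.01 for all genes, which only the skeletal muscle list exceeded among the 39 lists. Of 21 collagens listed, 16 were kept, 15 of these had a positive fold change, and 7 were higher at an unadjusted p under 0.05, where 0.947% of all genes were. Col3a1, a fibrillar collagen of soft tissue, was at 123, 33.8, 88.8, 94.8 and 32.9 FPKM in SF_HPD and 10.9, 36.4, 7.69, 12.4 and 29.9 FPKM in SF_ConD (log2 fold change 1.92, SE 0.53). SF_HPD 1, 3 and 4 were high, and SF_HPD 2 and 5 lay within the SF_ConD range, whose own high values were in SF_ConD 2 and 5. The mice with normal sleep read 65.3, 21.2 and 24.5 FPKM. Col1a2, a chain of the main fibrillar collagen, was at 74.4, 22.4, 33.7, 33.4 and 11.4 FPKM against 5.91, 11.2, 4.94, 6.58 and 18.4 FPKM (log2 fold change 1.70, SE 0.49). Its partner chain Col1a1 was at 141, 8.64, 21.7, 61 and 3.57 FPKM against 3.07, 8.16, 7.25, 6.75 and 5.81 FPKM (log2 fold change 1.82, SE 0.80), with 1 SF_HPD library (SF_HPD 5) lower than 4 of the 5 SF_ConD libraries. Col6a1 and Col6a3, chains of the microfibrillar collagen that surrounds adipocytes, had log2 fold changes of 1.35 (SE 0.58) and 1.49 (SE 0.53).

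The other matrix genes leaned the same way with smaller values. Of 24 matrix glycoproteins and enzymes kept (28 listed), 20 had positive fold changes, with a median of 0.51. Of the 24, 3 were higher at an unadjusted p under 0.05, against 0.947% of all genes. Fn1, fibronectin, was at 18, 11, 8.64, 16.3 and 4.15 FPKM in SF_HPD and 2.54, 6.42, 2.5, 4.66 and 8.4 FPKM in SF_ConD (log2 fold change 1.06, SE 0.42). Thbs1, thrombospondin 1, and Loxl1, a crosslinker of elastin, had log2 fold changes of 1.28 (SE 0.57) and 1.14 (SE 0.52), and Fbn1, the microfibril protein fibrillin 1, had 0.77 (SE 0.40). Markers of stromal progenitors, the cells that make most of this matrix, had a median of 0.35 over 16 kept, with 9 positive and 2 higher at an unadjusted p under 0.05. Pi16, which marks progenitors around vessels and ducts, was at 5.66, 8.98, 3.95, 10.6 and 5.06 FPKM against 0.862, 7.06, 1.55, 1.41 and 1.66 FPKM (log2 fold change 1.31, SE 0.41), and only SF_ConD 2 reached the SF_HPD range. Clec3b, tetranectin, was at 79.1, 168, 245, 57 and 97 FPKM against 54.3, 74.2, 28.1, 32.8 and 78.5 FPKM (log2 fold change 1.17, SE 0.48). Pdgfra, the growth factor receptor that defines these cells, was at 9.59, 1.57, 4.79, 8.7 and 2.91 FPKM against 1.59, 2.53, 1.82, 1.64 and 3.28 FPKM (log2 fold change 0.87, SE 0.40). Pi16, Clec3b and Pdgfra were positive, while 7 of the 16 stromal markers kept were negative. Ly6a, the most abundant of the list, was at 116, 355, 611, 78.7 and 396 FPKM against 561, 339, 213, 429 and 387 FPKM.

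The collagen values depended on how the length trend of the libraries was handled. Without SF_HPD 1, SF_HPD 4 and SF_ConD 3, the collagen median was 0.33 and the matrix median 0.14, and Col1a1 and Col3a1 had log2 fold changes of 0.59 and 1.19. The SF_HPD libraries left were then SF_HPD 2, 3 and 5, with collagen list means of 1.70, 2.60 and 1.54. Across the 11857 protein-coding genes, fold change and gene length had a rank correlation of 0.239, a description over genes that share libraries. With the length trend as a covariate and all 10 libraries kept, the medians were 1.04 for collagens and 0.45 for the other matrix genes. Leaving out any 1 library, the collagen median ranged from 0.80 to 1.52, and among the 5 libraries low in lymph node markers it was 0.95. The number of collagens higher at an unadjusted p under 0.05 was less steady than the median. It was 7 of 16 in all 10 libraries, 11 without SF_HPD 2, 9 with the length covariate, 4 without SF_HPD 1, without SF_HPD 4 or without SF_ConD 3, 2 in the libraries low in lymph node markers and 1 without the 3 libraries of length trend. Over all 13730 genes, those higher at that p numbered 130, 272, 352, 146, 147, 137, 25 and 346, in the same order. Of the other matrix genes, 3 of 24 were higher in all 10 libraries, 4 without SF_HPD 2 and 0 without SF_HPD 1 or without SF_HPD 4.

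The clock group turned on Dbp (chr7:45705088-45710203), a PAR-domain transcription factor that clock proteins drive through E-box elements (CACGTG) and that in turn binds D-box elements (TTATGTAA). Dbp was at 34, 30, 61, 31.3 and 33.2 FPKM in SF_HPD and 12.5, 26.8, 15.8, 10.2 and 12.3 FPKM in SF_ConD. All SF_HPD values were above all SF_ConD values, SF_HPD 3 was the highest, and SF_ConD 2 came closest to the SF_HPD range (log2 fold change 1.26, SE 0.32). The mice with normal sleep read 25.8, 29.5 and 14.5 FPKM, all below the lowest SF_HPD value. Per3, a period gene and a D-box target, was at 8.92, 1.08, 2.16, 8.13 and 3.45 FPKM against 0.461, 1.59, 3.76, 0.752 and 2.35 FPKM (log2 fold change 0.93, SE 0.49), and Tef, the PAR-domain relative of Dbp, was at 40.5, 8.85, 19.7, 36.8 and 19.5 FPKM against 6.38, 16.4, 21.7, 9.31 and 18.2 FPKM (log2 fold change 0.70, SE 0.45). Both overlapped between groups, and their high values were in SF_HPD 1 and 4 and, among SF_ConD, in SF_ConD 3, the 3 libraries with the length trend. Nfil3, a repressor that competes for D-boxes, was at 2.98, 2.39, 2.02, 3.26 and 1.89 FPKM against 4.4, 4.03, 4.02, 3.59 and 2.83 FPKM (log2 fold change -0.45, SE 0.22). The promoters of Dbp, Tef and Per3 are shown because Dbp was the clock gene without overlap and Tef and Per3 were read beside it: 250 bases before each RefSeq start site (GRCm38.p6), 5′ to 3′ on the gene's strand, with E-box and D-box matches in capitals.
Dbp, chr7:45704997-45705246, plus strand: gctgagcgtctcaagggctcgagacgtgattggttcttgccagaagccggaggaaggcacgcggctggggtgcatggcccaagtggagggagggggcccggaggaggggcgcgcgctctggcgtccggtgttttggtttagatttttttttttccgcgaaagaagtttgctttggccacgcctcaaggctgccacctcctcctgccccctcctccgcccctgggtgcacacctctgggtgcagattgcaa
Tef, first start, chr15:81802423-81802672, plus strand: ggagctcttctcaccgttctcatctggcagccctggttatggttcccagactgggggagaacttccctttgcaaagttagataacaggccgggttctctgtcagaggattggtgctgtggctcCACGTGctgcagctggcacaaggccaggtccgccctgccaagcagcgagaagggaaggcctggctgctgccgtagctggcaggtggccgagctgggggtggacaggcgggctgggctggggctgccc
Tef, second start, chr15:81811164-81811413, plus strand: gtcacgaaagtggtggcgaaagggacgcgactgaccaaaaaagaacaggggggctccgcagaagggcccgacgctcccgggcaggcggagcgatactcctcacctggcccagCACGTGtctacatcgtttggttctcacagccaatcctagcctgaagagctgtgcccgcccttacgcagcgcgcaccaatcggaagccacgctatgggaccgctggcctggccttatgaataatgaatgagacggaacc
Per3, chr4:151044666-151044915, minus strand: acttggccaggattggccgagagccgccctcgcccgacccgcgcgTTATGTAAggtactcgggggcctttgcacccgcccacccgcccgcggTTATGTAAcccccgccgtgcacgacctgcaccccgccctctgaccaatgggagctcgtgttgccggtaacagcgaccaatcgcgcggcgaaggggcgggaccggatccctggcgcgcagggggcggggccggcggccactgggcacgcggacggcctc

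Searched from 250 bases before to 50 after the start on both strands, each Tef start had 1 CACGTG (127 and 138 bases upstream), Per3 had 2 copies of TTATGTAA (205 and 158 bases upstream), and Dbp had neither word in this window. Of 32851 RefSeq mouse promoters, 7.15% hold CACGTG and 0.938% hold TTATGTAA. Of the 21 clock genes listed, 17 matched a promoter entry, 5 of these held CACGTG and 1 held TTATGTAA. A match is a description of letters and not of binding. Over the 20 clock genes kept, 12 had positive fold changes, 1 (Dbp) was higher at an unadjusted p under 0.05, and the median was 0.29. The D-box factor Hlf and the clock repressor Ciart had log2 fold changes of 0.51 (SE 0.45) and 0.35 (SE 0.29). The median turned to -0.19 among the libraries low in lymph node markers, where Per3 had 0.20 and Dbp 0.91 (SE 0.60). Without the 3 libraries of length trend it was -0.11, and Per3 had 0.51 and Dbp 1.39.

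The hormones of adipocytes were mixed. Of 11 adipokines kept (15 listed), 5 had positive fold changes and the median was -0.06, with Sfrp5 higher and Lcn2 lower at an unadjusted p under 0.05. Without SF_HPD 2 the adipokine median was 0.25, with 8 of 11 positive and 3 higher and 1 lower at an unadjusted p under 0.05. Lep (chr6:29060220-29073877), leptin, was at 37.4, 0, 95, 37.1 and 12.4 FPKM in SF_HPD and at 5.87, 16.4, 5.33, 1.71 and 2.83 FPKM in SF_ConD (log2 fold change 1.58, SE 1.06), with an exact two-sided permutation p of 0.238. SF_HPD 1, 3 and 4 were above every SF_ConD library, SF_HPD 5 was below SF_ConD 2, and SF_HPD 2 was listed at 0. Without SF_HPD 2 there was a log2 fold change of 2.62 (SE 0.63) that did not pass the adjusted test. In mice with normal sleep Lep was at 72.7, 35.6 and 24.6 FPKM. Adipoq, adiponectin, was at 1437, 26.1, 1989, 673 and 2175 FPKM against 1413, 2637, 666, 836 and 1207 FPKM (log2 fold change -0.89, exact two-sided permutation p = 0.683), and without SF_HPD 2 the log2 fold change was 0.25. Resistin, Retn, and Metrnl, a meteorin-like hormone, had log2 fold changes of -1.26 (SE 0.95) and 1.04 (SE 0.66). Over the 20 adipocyte identity genes the median was -0.58 with 19 negative, and it turned to 0.25 with 15 of 20 positive once SF_HPD 2 was left out.

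**Figure D4:**
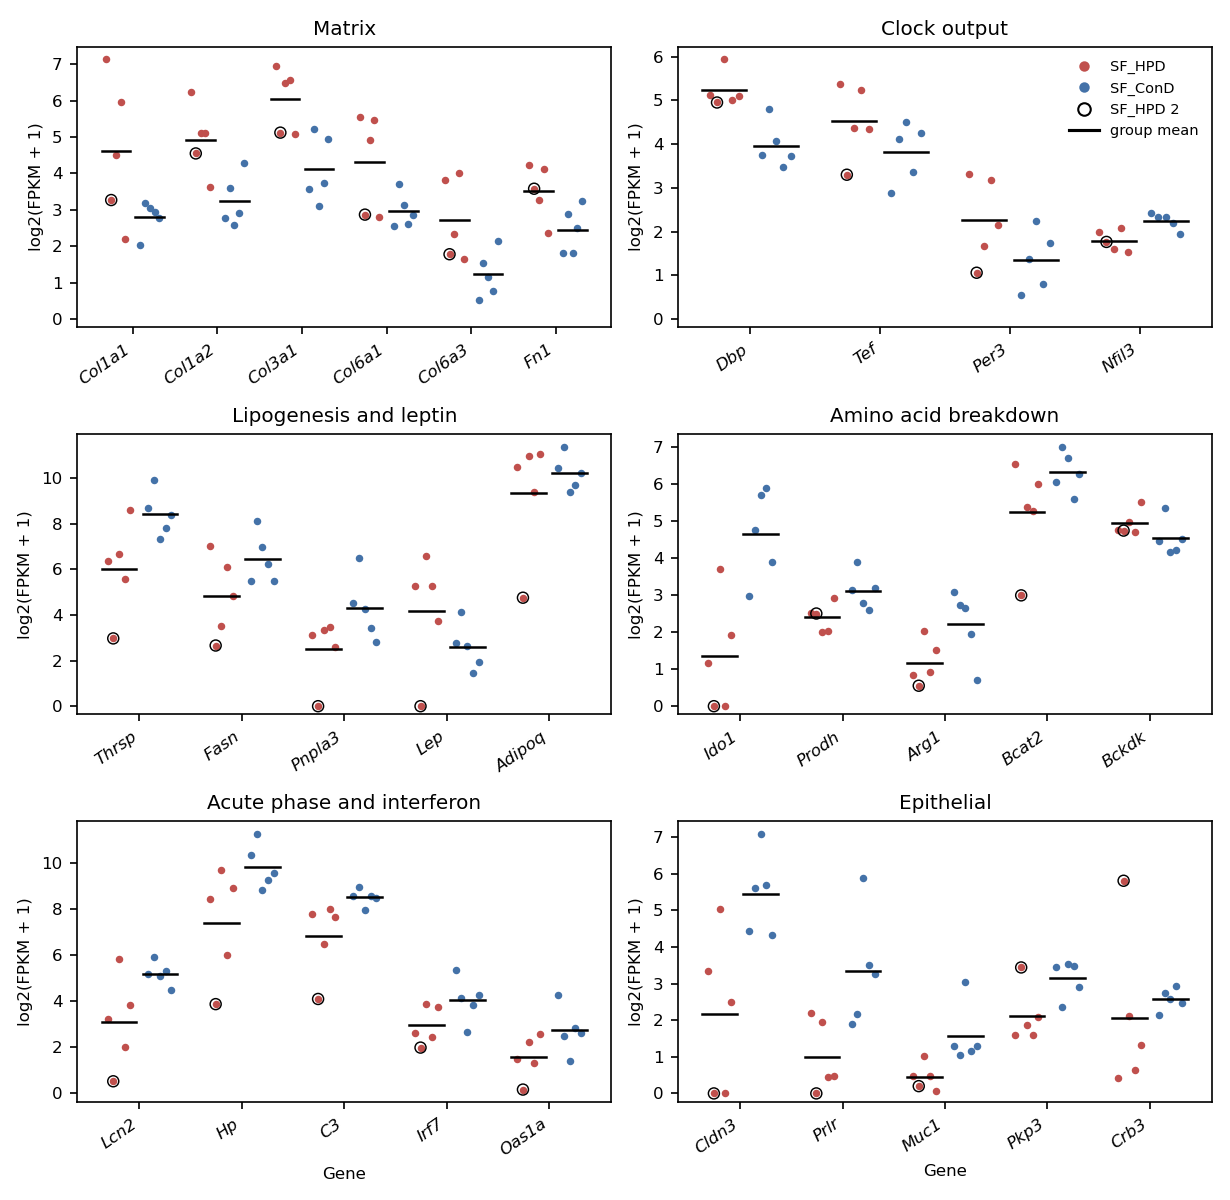
Log2(FPKM + 1) of genes of matrix, clock output, fat storage hormones and synthesis, amino acid breakdown, acute phase and interferon, and epithelium in each SF_HPD (red) and SF_ConD (blue) library, with group means as black lines and SF_HPD 2 ringed. Dbp is the only clock gene shown whose groups do not overlap, Lep is listed at 0 only in the ringed library, and Ido1 is at 0 in 2 SF_HPD libraries.

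Genes of fatty acid synthesis had lower means in SF_HPD. Of 20 kept, 15 had negative fold changes, Thrsp and Pnpla3 were lower at an unadjusted p under 0.05 (1.25% of all genes), and the median was -0.30. Thrsp, the lipogenic regulator Spot 14, was at 81.9, 6.86, 100.4, 46.4 and 392 FPKM in SF_HPD and 408, 958, 162, 224 and 331 FPKM in SF_ConD (log2 fold change -2.38, SE 0.92). SF_HPD 1 to 4 lay below every SF_ConD library, and SF_HPD 5 lay within their range. Pnpla3, a lipid droplet acyltransferase and lipase that carbohydrate feeding induces, was at 7.83, 0, 9.08, 10.1 and 5.02 FPKM against 21.9, 88.3, 18.1, 9.87 and 6.13 FPKM (log2 fold change -1.80, SE 0.78). Fasn, fatty acid synthase, was at 129.9, 5.33, 10.5, 67.9 and 27.4 FPKM against 43.8, 282, 124, 74.8 and 44.7 FPKM (log2 fold change -1.64, SE 0.84), with SF_HPD 1 above 4 of the SF_ConD libraries. Elovl5, an elongase of polyunsaturated fatty acids, had -0.65 (SE 0.39). SF_HPD 2 was the lowest library for all 4, and without it the log2 fold changes were -1.62 (Thrsp), -1.17 (Pnpla3), -1.10 (Fasn) and -0.29 (Elovl5). The median of the group was then -0.16, with 9 positive, 11 negative and 1 lower at an unadjusted p under 0.05. Among the 5 libraries low in lymph node markers the same 4 read -3.29, -3.21, -3.15 and -0.96. Those libraries include SF_HPD 2, and the adipocyte identity median among them was -1.65.

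Lipid release, oxidation and heat production gave no member at an unadjusted p under 0.05. Over 20 genes of lipolysis and the lipid droplet the median was -0.17, and 0.49 without SF_HPD 2. Npr3, the clearance receptor of natriuretic peptides, was at 13.3, 0.455, 15.5, 15 and 1.78 FPKM against 0.802, 1.69, 3.97, 1.35 and 2.22 FPKM (log2 fold change 1.27, SE 0.69), high in SF_HPD 1, 3 and 4. Over 19 genes of fatty acid oxidation the median was 0.20, but it turned to -0.09 without SF_HPD 1 and to -0.51 in the libraries low in lymph node markers. Acot2, a mitochondrial thioesterase, had 0.48 (SE 0.33). The 12 thermogenic genes kept had a median of -0.40 with 3 positive, or 6 positive without SF_HPD 2, and their spread was wide: Ucp1, the uncoupling protein, was at 2.6, 0, 0.259, 2.55 and 124 FPKM in SF_HPD and 0.646, 35.3, 11.2, 3.39 and 6.17 FPKM in SF_ConD (exact two-sided permutation p = 0.651). Cidea was at 136, 2.88, 5.24, 25.9 and 937 FPKM against 64.5, 459.8, 138, 108 and 254 FPKM, so SF_HPD 5 had the highest and SF_HPD 2 the lowest level of both groups. Cox8b and Elovl3, also high in beige adipocytes, had log2 fold changes of -1.74 (SE 1.25) and -1.25 (SE 1.03). In the insulin group the median over 22 genes was 0.15, and it was 0.41 without SF_HPD 2, -0.10 without SF_HPD 1 and -0.02 without SF_HPD 4. The receptor substrate Irs1 was at 5.02, 0, 1.03, 4.29 and 0.872 FPKM against 0.13, 0.593, 2.79, 0.492 and 0.162 FPKM, and Igfbp3, which binds insulin-like growth factors, had -0.73 (SE 0.50).

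Enzymes that break down amino acids were of interest because the SF_HPD diet takes much of its energy from protein. The 22 genes of branched-chain amino acid catabolism had a median of -0.16, with 6 positive and 0 at an unadjusted p under 0.05, and the median was 0.06 without SF_HPD 2. Bcat2, the mitochondrial aminotransferase of the first step, was at 91.7, 6.96, 40.8, 38 and 62.4 FPKM in SF_HPD and 65.4, 127, 102, 47.5 and 76.6 FPKM in SF_ConD (log2 fold change -1.09, SE 0.61). Bckdk, the kinase that turns off the second step, was at 25.9, 25.8, 30.4, 25.2 and 44.9 FPKM against 21.2, 40.2, 17.1, 17.5 and 21.9 FPKM (log2 fold change 0.39, SE 0.30), and Ppm1k, the phosphatase that turns it on, had -0.34 (SE 0.40). The groups overlapped for all 3.

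Among 19 kept of 26 listed genes for other amino acids and nitrogen, 14 had negative fold changes. The median was -0.27 (-0.26 without SF_HPD 2). Ido1, Prodh and Arg1 were lower at an unadjusted p under 0.05, as were 1.25% of all genes. The list mean per library was 2.71 to 2.82 in SF_HPD and 2.84 to 3.35 in SF_ConD, so the groups did not overlap on it. The gap was narrow, between SF_HPD 3 (2.82) and SF_ConD 5 (2.84), and the lists were chosen with earlier results known. Of all genes tested, 0.43% were without overlap in either direction. The means of every other list overlapped between the groups, so this list was the exception among the many looked at. In the mice with normal sleep this list mean was 3.03, 4.53 and 4.42, and the liver list mean was 2.92, 9.45 and 8.21. SF_ConD 3, with a liver list mean of 2.20, read 3.17 on it. What liver transcripts add to this list was not tested. Ido1, which starts the breakdown of tryptophan to kynurenine and is induced by interferon, was at 1.26, 0, 12.2, 0 and 2.82 FPKM in SF_HPD and 6.84, 26.3, 51, 58.3 and 14 FPKM in SF_ConD (log2 fold change -3.28, SE 0.78). It was listed at 0 in SF_HPD 2 and 4, and SF_HPD 3 alone reached the SF_ConD range. The log2 fold change was -2.94 without SF_HPD 2 and lay between -3.87 and -2.94 when any 1 library was left out. The mice with normal sleep read 26.2, 0 and 70.8 FPKM. Prodh, the first enzyme of proline breakdown, was at 4.77, 4.67, 3.0, 3.1 and 6.52 FPKM against 7.85, 13.9, 5.88, 5.02 and 8.07 FPKM (log2 fold change -0.72, SE 0.30), and Arg1, arginase 1, was at 0.778, 0.467, 3.07, 0.91 and 1.86 FPKM against 7.41, 5.65, 5.28, 2.89 and 0.625 FPKM (log2 fold change -1.05, SE 0.46). In the mice with normal sleep Arg1 was at 2.32, 191 and 80.1 FPKM, highest in those with the higher liver list means. Glutamine synthetase, Glul, was at 667, 28.1, 337, 245 and 482 FPKM against 319, 698, 914, 440.3 and 611 FPKM (log2 fold change -1.23, SE 0.81), and Arg2 and Glud1, arginase 2 and glutamate dehydrogenase, had log2 fold changes of -1.24 (SE 0.82) and -0.47 (SE 0.34). The epithelial gene Cldn3, described below, was also at 0 in SF_HPD 2 and 4 and was highest in SF_ConD 2, 3 and 4, the libraries with most Ido1, and what the epithelium contributes to Ido1 was not tested.

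Amino acid transport and sensing showed no member at an unadjusted p under 0.05 in either direction. The 21 transporters kept (25 listed) had a median of -0.16 and 10 positive (0.16 and 13 positive without SF_HPD 2). Slc16a10, a carrier of aromatic amino acids, was at 8.74, 0.832, 4.41, 5.75 and 3.32 FPKM against 0.701, 4.04, 2.06, 1.51 and 1.84 FPKM (log2 fold change 0.78, SE 0.45). Slc7a2, a carrier of arginine and lysine, was at 3.29, 0.0379, 1.05, 4.55 and 0.121 FPKM against 1.34, 1.54, 43.3, 4.03 and 3.82 FPKM, where SF_ConD 3 held the top value, and Slc7a7, another carrier of basic amino acids, had -0.58 (SE 0.42). The 22 targets of ATF4 kept had a median of -0.08, with Vldlr, a lipoprotein receptor, at 0.83 (SE 0.41) and Psat1, an enzyme of serine synthesis, at 20.5, 7.79, 39.4, 14.5 and 25.6 FPKM against 16.2, 22.8, 6.77, 11 and 11.9 FPKM. Of the 25 ATF4 targets listed, 22 matched a promoter entry and 7 of these held TTGCATCA, a word for ATF4 sites searched on both strands, which 0.895% of all promoters hold. The 25 genes of mTORC1 sensing had a median of 0.10 with 18 positive. Sesn1, a sestrin that restrains mTORC1, was at 8.6, 5.98, 12.3, 14.3 and 11.5 FPKM against 30, 11.7, 11.1, 24.2 and 13.3 FPKM (log2 fold change -0.67, SE 0.34), and Rps6kb1, the S6 kinase downstream, was at 7.98, 5.98, 7.53, 6.3 and 8.6 FPKM against 4.13, 7.49, 4.68, 4.91 and 5.29 FPKM (log2 fold change 0.41, SE 0.22).

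The title of the series names adipose inflammation, so the genes usually read for it come next. Of 20 cytokine and chemokine genes kept (26 listed), 10 had positive and 10 negative fold changes, 0 were at an unadjusted p under 0.05, and the median was -0.09 (0.19 in the libraries low in lymph node markers). Tnf was at 0.0286, 0, 0.842, 1.34 and 1.85 FPKM in SF_HPD and 3.27, 0.491, 0.701, 2.05 and 1.65 FPKM in SF_ConD (log2 fold change -0.56, exact two-sided permutation p = 0.222). Ccl2, the monocyte attractant, was at 0.658, 1.42, 5.18, 0.968 and 4.61 FPKM against 4.47, 1.59, 1.01, 1.22 and 2.98 FPKM (log2 fold change 0.02, exact two-sided permutation p = 0.944). Il6 stayed under the filter, with at most 0.459 FPKM in any library (exact two-sided permutation p = 0.444). Ccl5, a T cell chemokine, was at 0.634, 0, 2.6, 20.2 and 150.3 FPKM against 229, 5.16, 2.29, 121 and 119 FPKM, and its 5 high libraries were the 5 rich in lymph node markers. With the macrophage gene Adgre1 below, these and the 3 adipocyte genes above (Ucp1, Adipoq and Lep) made 7 exact tests, whose adjusted p was 0.944 for Ccl2 and 0.824 for each of the other 6. The smallest p that 5 libraries against 5 can give is 0.00794.

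Macrophage markers were mixed. The 22 kept had a median of -0.23, with 9 positive and 1 higher at an unadjusted p under 0.05, and the median turned to 0.08 without SF_HPD 2 and to 0.58, with 17 positive, in the libraries low in lymph node markers. With the lymph node list as a covariate it was 0.24, with 16 positive. Adgre1, the F4/80 antigen, was at 9.17, 1.5, 22.7, 4.37 and 6.04 FPKM against 12.9, 6.52, 1.97, 8.37 and 2.07 FPKM (log2 fold change 0.27, exact two-sided permutation p = 0.706). Mrc1, the mannose receptor of resident macrophages, was at 10.5, 2.41, 6.27, 8.4 and 3.8 FPKM in SF_HPD and 1.84, 2.26, 2.48, 3.16 and 3.1 FPKM in SF_ConD (log2 fold change 0.91, SE 0.34), and 4 of 5 SF_HPD values were above every SF_ConD value. Cd163, another scavenger receptor of resident cells, had 0.78 (SE 0.53). Gpnmb and Trem2, genes of lipid-laden macrophages, had 1.24 (SE 0.60) and 0.94 (SE 0.67), and SF_HPD 3 was the highest library for both, at 24.4 and 18.3 FPKM. These named members were all positive, while 13 of the 22 kept were negative. Among abundant members, Lyz2 was at 174.5 to 2211.7 FPKM in SF_HPD and 39.1 to 3842.0 FPKM in SF_ConD. C1qa was at 48.5, 101.4, 272.6, 38.8 and 226.7 FPKM against 411.2, 123.9, 23.2, 200.3 and 170.1 FPKM. The neutrophil gene S100a9 was at 1.35, 1.55, 2.85, 48.3 and 91.2 FPKM against 39.7, 30.3, 10.4, 37.2 and 217 FPKM.

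Acute-phase and interferon genes had lower means in SF_HPD. Of 14 acute-phase genes kept, 9 were negative, and the median was -0.73 (-0.47 without SF_HPD 2). Lcn2, C3 and Hp were lower at an unadjusted p under 0.05, as were 1.25% of all genes. Lcn2, lipocalin 2, was at 8.34, 0.44, 56.3, 3.07 and 13.5 FPKM in SF_HPD and 35, 59.7, 33.5, 38.5 and 21.8 FPKM in SF_ConD (log2 fold change -2.11, SE 0.81). Only SF_HPD 3 reached the SF_ConD range, while the mice with normal sleep read 16.8, 398 and 335 FPKM. Complement C3 was at 222, 16.1, 89.4, 259 and 202 FPKM against 378, 497, 246, 382 and 354 FPKM (log2 fold change -1.69, SE 0.72), and haptoglobin, Hp, at 342, 13.7, 829, 62.5 and 477 FPKM against 1290.2, 2431, 450.0, 614 and 759 FPKM (log2 fold change -2.47, SE 1.06). Adipocytes make all 3 and SF_HPD 2 was the lowest library for each; without it the log2 fold changes were -1.47, -1.01 and -1.59. Socs3, the brake on cytokine receptors, had -0.70 (SE 0.36), and Saa2, serum amyloid A2, followed the liver genes below with 6.58 to 30.3 FPKM in SF_ConD 1, 2 and 4 and at most 1.79 FPKM elsewhere.

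All 26 interferon-stimulated genes kept (28 listed) had negative fold changes, with a median of -0.70. Irf9 and Ifi44 were lower at an unadjusted p under 0.05, as were 1.25% of all genes. Irf9, the DNA-binding part of the interferon-activated complex, was at 3.69, 3.92, 7.58, 5.16 and 7.45 FPKM in SF_HPD and 16.7, 6.83, 5.46, 13.7 and 12.1 FPKM in SF_ConD (log2 fold change -0.81, SE 0.33). Irf7, the factor that amplifies the response, was at 5.21, 2.97, 13.9, 4.51 and 12.6 FPKM against 40.4, 16.6, 5.34, 13.4 and 18.1 FPKM (log2 fold change -1.10, SE 0.52). Oas1a, an antiviral RNA sensor, was at 1.81, 0.123, 3.74, 1.51 and 5.03 FPKM against 18.5, 4.69, 1.69, 6.11 and 5.17 FPKM (log2 fold change -1.17, SE 0.56), and Ifi44 had -0.60 (SE 0.24). The list mean was 1.87 to 3.18 in SF_HPD and 2.48 to 3.86 in SF_ConD. Without SF_HPD 2 neither Irf9 nor Ifi44 was at an unadjusted p under 0.05 (-0.72, SE 0.35, and -0.49, SE 0.23). The median was -0.49 without SF_HPD 2 and -0.24 among the 5 libraries low in lymph node markers, and with the lymph node list as a covariate it was -0.43.

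Lymphocyte genes had the most negative medians among the immune lists. All 22 T and NK cell genes and all 19 B cell and lymph node genes had negative fold changes, with medians of -1.35 and -1.35. The B cell list mean was 0.349 to 4.57 in SF_HPD and 0.382 to 5.64 in SF_ConD, with 2 high libraries of 5 in the first and 3 of 5 in the second. Of all genes, 1.25% were lower at an unadjusted p under 0.05. So were Klrb1c and Gzma, genes of NK and cytotoxic cells (-0.82, SE 0.35, and -1.74, SE 0.76). Without SF_HPD 2 neither was (-0.73, SE 0.37, and -1.57, SE 0.82), and the medians were -1.05 (T and NK) and -0.83 (B cell). With the 5 rich libraries left out the medians were -0.37 (T and NK) and -0.17 (B cell), and without SF_ConD 1 alone they were -0.94 and -0.74. All 11 genes of MHC class II presentation were negative too, with a median of -0.96, and -0.65 without SF_HPD 2 or -0.26 without the rich libraries.

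Markers of tissue beside the fat had unequal group means. Of 20 epithelial markers kept (24 listed), 18 were negative, with a median of -1.29. Of the 20, 6 were lower at an unadjusted p under 0.05, against 1.25% of all genes. Cldn3, a tight junction claudin, was at 9.15, 0, 31.8, 0 and 4.65 FPKM in SF_HPD and 20.9, 47.8, 134, 51.2 and 19.2 FPKM in SF_ConD (log2 fold change -3.26, SE 0.95). Prlr, the prolactin receptor, was at 3.54, 0, 2.87, 0.355 and 0.381 FPKM against 2.69, 3.54, 58.5, 10.4 and 8.69 FPKM (log2 fold change -2.34, SE 0.74), and its highest value, 58.5 FPKM, was in SF_ConD 3. Muc1, a mucin of ducts, was at 0.399, 0.148, 1.02, 0.395 and 0.043 FPKM against 1.44, 1.06, 7.2, 1.24 and 1.45 FPKM without overlap (log2 fold change -1.12, SE 0.39). Trf, transferrin, had -1.20 (SE 0.44), and Elf5 and Krt14, of luminal and basal mammary cells, had -1.16 (SE 0.43) and -1.96 (SE 0.85). Without SF_HPD 2, the library with the uroplakins, 14 of 20 were lower at an unadjusted p under 0.05, against 1.94% of all genes. The median was then -1.73. Without SF_HPD 4, where Elf5, Krt14 and Cldn3 were at 0, the median was -0.70, and without the 3 libraries of length trend it was -0.10.

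Genes of liver-secreted proteins had 18 of 19 negative fold changes and a median of -1.31. Of the 19, 5 were lower at an unadjusted p under 0.05, against 1.25% of all genes. The list mean was 3.42 to 4.55 in SF_ConD 1, 2 and 4 and at most 2.69 in the other 7 libraries, 5 of them SF_HPD. Serpina3k, a serine protease inhibitor, was at 2.14, 0.618, 5.73, 5.18 and 5.74 FPKM against 26.5, 42.9, 4.22, 14.6 and 2.62 FPKM (log2 fold change -1.59, SE 0.70). Apoh and Tat, apolipoprotein H and tyrosine aminotransferase, had -0.96 (SE 0.39) and -1.04 (SE 0.45). Without SF_HPD 2, 0 of the 19 were at an unadjusted p under 0.05, Serpina3k, Apoh and Tat had -1.24 (SE 0.70), -0.84 (SE 0.41) and -0.94 (SE 0.48), and the median was -1.16. The median was -0.83 without SF_ConD 2. The defining liver gene Alb was at 3.30 to 33.7 FPKM in SF_HPD and 9.32 to 88.3 FPKM in SF_ConD. The 7 skeletal muscle genes kept had a median of 1.97, which was -0.05 without SF_HPD 4. All 12 smooth muscle genes had positive fold changes and a median of 0.82, among them Des and Myh11, desmin and smooth muscle myosin (1.58, SE 0.80, and 1.27, SE 0.65), with SF_HPD 2 and 4 the high libraries for both. Without SF_HPD 2 the smooth muscle median was 0.53 with 11 positive, and without both of these libraries Des had 0.25 and Myh11 0.55. Over the 20 endothelial genes the median was -0.17, and it was 0.31 without SF_HPD 2. Of 10 nerve genes, Sox10, the factor of Schwann cells, was lower at an unadjusted p under 0.05 (-1.22, SE 0.51), with SF_ConD 3 at 16.7 FPKM. Without SF_HPD 2 Sox10 had -1.03 (SE 0.53).

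**Figure D5:**
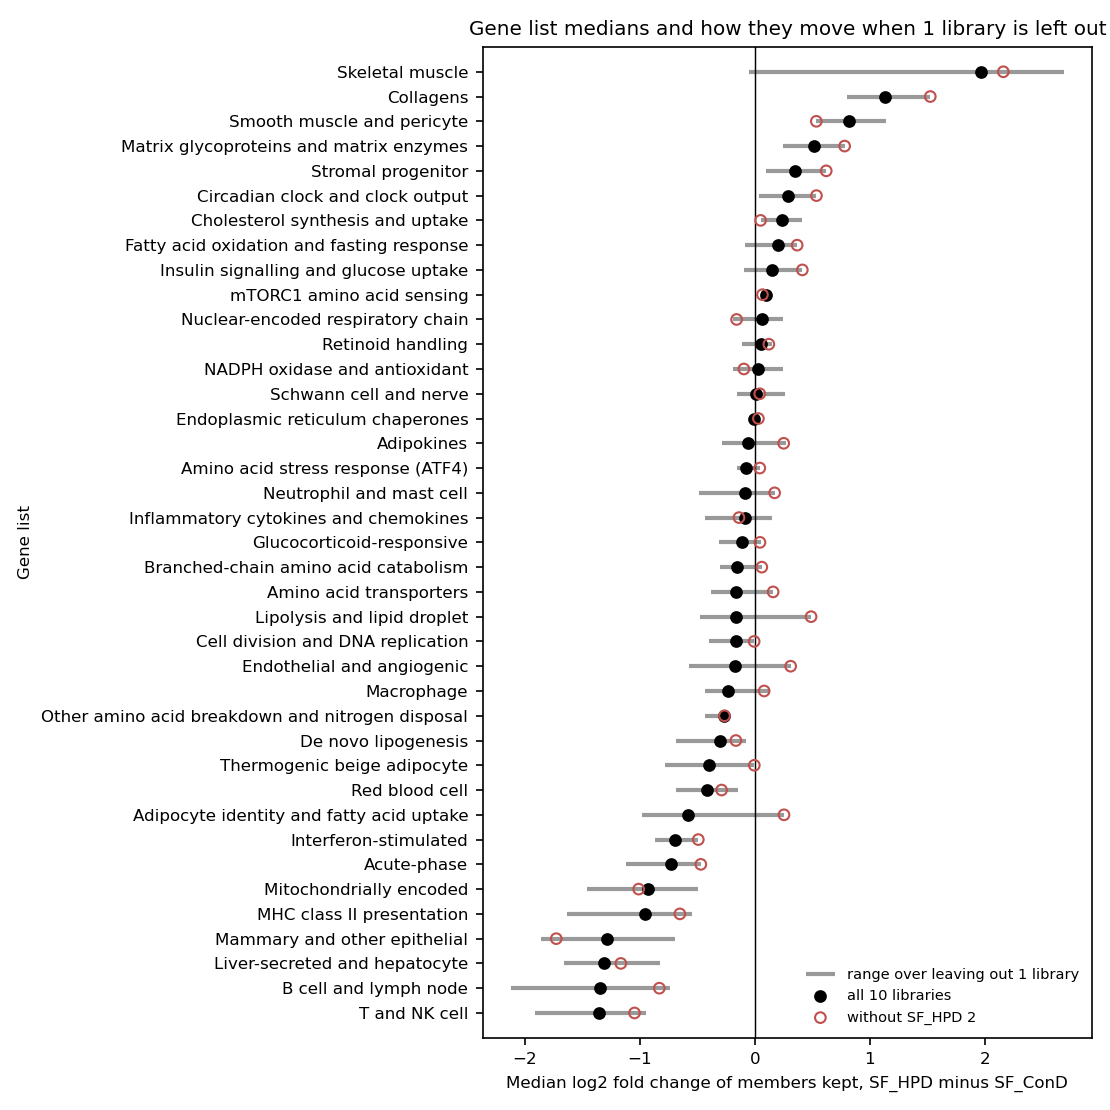
Median log2 fold change (SF_HPD minus SF_ConD) of the members kept in each of 39 gene lists, for all 10 libraries (black) and without SF_HPD 2 (open red), with grey bars for the range when any 1 library is left out. Collagens and matrix genes stay right of zero and the lymphocyte, liver, epithelial and interferon lists left of it over these bars, while the adipocyte median crosses zero when SF_HPD 2 is left out.

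Of the stress and housekeeping groups, glucocorticoid-responsive genes were mixed. Over 20 kept the median was -0.12 (0.04 without SF_HPD 2), with Dusp1 higher and Fkbp5 and Lcn2 lower at an unadjusted p under 0.05. Dusp1, a phosphatase that turns off stress kinases, was at 54.2, 17.1, 36.5, 26 and 30.3 FPKM in SF_HPD and 23.6, 10.1, 9.3, 18 and 5.16 FPKM in SF_ConD (log2 fold change 1.32, SE 0.42). Fkbp5, a cochaperone of the glucocorticoid receptor, was at 12.1, 1.15, 2.86, 5.84 and 2.61 FPKM against 6.22, 10.3, 10.8, 10.9 and 14 FPKM (log2 fold change -1.20, SE 0.44). These textbook targets of the same receptor had means in opposite directions, and the groups overlapped for both. Sult1a1, a sulfotransferase, had -1.32 (SE 0.60).

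All 15 mitochondrially encoded genes had negative fold changes (median -0.93, 0 at an unadjusted p under 0.05), while the 36 nuclear genes of the respiratory chain had a median of 0.06, which was -0.16 without SF_HPD 2. The mitochondrially encoded median was -0.50 with 2 positive without SF_HPD 1 and -1.46 without SF_HPD 5, and mt-Atp6 had -1.61 without SF_HPD 1. The gene mt-Atp6 of the ATP synthase was at 27, 354, 155, 700.1 and 4687 FPKM against 1477, 2855, 1319.7, 1355 and 4249 FPKM (log2 fold change -2.52, SE 1.17), and mt-Nd4l of complex I had -2.36 (SE 1.10). SF_HPD 5 and SF_ConD 5, the 2 libraries with most mitochondrial reads, were the highest for mt-Atp6. Over 22 genes of NADPH oxidases, which make oxidants, and of antioxidant defence the median was 0.03 (-0.10 without SF_HPD 2), with Gpx3, the secreted glutathione peroxidase, at -1.70 (SE 0.81). Cell division genes (22 kept) had a median of -0.17. Aurka and Mcm6 (-0.65, SE 0.28, and -0.82, SE 0.36) were lower at an unadjusted p under 0.05, as were 1.25% of all genes. Without SF_HPD 2 neither was (-0.67, SE 0.30, and -0.59, SE 0.32), and the median was -0.01. Cholesterol genes had a median of 0.24 with 18 of 22 positive, which was 0.05 with 12 positive without SF_HPD 2, and Mvk, mevalonate kinase, had 0.83 (SE 0.53). Endoplasmic reticulum chaperones were close to level, with a median of -0.01 and Pdia6 at -0.38 (SE 0.30). Retinoid handling had a median of 0.05 over 16 genes, and the retinoic acid carrier Crabp2 was at -0.84 (SE 0.39).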

How the data were processed

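Total RNA of inguinal white adipose tissue was sequenced, and the authors deposited 1 table of FPKM per gene, beside each gene's position and length. The tools listed per the submitters' processing notes, with no role or order, were CASAVA, featureCounts 1.5.0-p3 and HISAT2 2.0.5, and the build was mm8. Of 54532 identifiers, 54409 were in the GRCm38 annotation used here, of which 53499 kept their start and end, so the table's coordinates are printed as GRCm38. The sources used here give neither the strand setting nor the annotation version, so reads of overlapping genes, antisense partners and near-identical copies cannot be told apart. The deposited FPKM values times gene length were whole multiples of 1 read for 100% of values within a tolerance of 0.05, which gave the recovered reads. The total implied by each library's FPKM was 0.479 to 1.23 times its recovered reads, and FPKM sums differed 5.03-fold between the 10 libraries. The sources used here do not say which total was used. Median-of-ratios factors on the deposited scale were 0.979 to 1.07.

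Tests ran on log2(FPKM + 1), a scale on which fold changes of low genes are understated. Limma 3.58.1 in R 4.3.3 compared 5 SF_HPD with 5 SF_ConD libraries, moderated with trend and robust options, and p-values (two-sided) were adjusted by Benjamini-Hochberg over 13730 genes, with a threshold of 0.05. The scripts were tested on simulated data. For 7 preset genes an exact permutation test (two-sided) was added. Gene lists are described by counts and medians, with no test. The members, the 39 lists and the preset genes were chosen with earlier results of these data known.

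Genes were named by rule: the 12 per direction with the smallest p among genes without overlap and with a mean of at least 2 FPKM (none passed), then up to 6 list members of smallest p and the preset genes. The rule also allowed up to 4 most abundant markers per list, of which many, such as Cfd, Krt18 and Cldn5, are not described above. Unnamed gene models, pseudogenes and receptor segments were left out. Uroplakins, some further list members (such as Hlf, Ciart, Glul, Arg2, Glud1, Ppm1k, Socs3, Saa2, Trem2, Cd163 and Fbn1), the genes named without SF_HPD 2 and the repeat counts without it were added after the data were seen. Alternatives covered the pseudocount, filters, scaling, 13 libraries in the fit, moderation, a replicate block, recovered reads, covariates and left-out libraries. No libraries were near-identical. The labels state separate mice, and p-values measure the spread among these mice.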

Additional observations from a re-analysis of the deposited data

Results flagged for a closer look

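In groups of 5, a library was singled out where its gap to the nearest other exceeded 0.71 of the group's range (Dixon's test), on log2(FPKM + 1). Of 330 groups checked, 23 were singled out, and chance alone gives about 1 in 20, so no weight rests on a single one. The values below were not explained.

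SF_HPD 2 was far from the other SF_HPD libraries for Mosmo (3.18), P2rx1 (4.45), Iigp1 (1.43), Cmpk2 (0.353), Pnpla3 (0), Adipoq (4.76), Abcd2 (1.13) and Pkp3 (3.44). Its list means stood apart for adipocyte identity (4.13, the others at 7.46 to 8.79) and for cholesterol synthesis (3.31, the others at 2.16 to 2.33). SF_HPD 4 stood apart for Acta1 (12.7) and the skeletal muscle list (8.2, the others at 0.497 to 1.22). The clock output gene Dbp was high in SF_HPD 3 (5.95, the others at 4.95 to 5.13), and Ucp1 was high in SF_HPD 5 (6.97, the others at 0 to 1.85).

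In SF_ConD, SF_ConD 3 stood apart for Irs1 (1.92), Slc7a2 (5.47) and Muc1 (3.03). SF_ConD 2 did so for Pi16 (3.01), Bckdk (5.36), the skeletal muscle list (1.96) and the cholesterol list (2.58, the others at 2.13 to 2.14). SF_ConD 5 had a low Crabp2 (1.08) and a high mean of mitochondrially encoded genes (12.6, the others at 10.7 to 11.1).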

How the results depend on the processing

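No gene was called under any of 25 alternatives, with smallest adjusted limma p between 0.104 (without SF_HPD 5) and 1. At an unadjusted p under 0.05, counts of higher and lower genes were 130 and 171 in the fit reported, 352 and 273 with the length trend as a covariate, 346 and 371 without its 3 libraries, 210 and 163 after quantile scaling (56.3% higher against 43.2%), 242 and 168 without SF_HPD 2 and 4, 268 and 248 without SF_HPD 5, 272 and 267 without SF_HPD 2, 74 and 131 without SF_ConD 1, 71 and 115 without SF_ConD 4, 86 and 185 without SF_ConD 5, 137 and 254 without SF_ConD 3, 38 and 66 among genes averaging 5 FPKM, 76 and 91 after rescaling to TPM, 25 and 95 without the lymphoid-rich libraries and 234 and 316 with no filter. With the replicate block they were 90 and 212, and no call changed. Deviations of same-numbered libraries correlated at -0.680, 0.125, -0.114, 0.343 and 0.412, and only number 4 correlated best with its own number, so the numbers were not taken as pairs. Of 3081 fold changes of 125 genes, 22 turned sign, in 13 genes. Without the lymphoid-rich libraries Acot2 had -0.070, Irs1 -0.094, Abcd2 -0.30, Crb3 0.12, Ciart -0.077 and Hlf -0.094. Without the libraries of length trend Abcd2 had -0.27, Crb3 0.51 and Arg2 0.036. Without SF_HPD 2 and 4 Elovl3 had 0.10, Retn 0.078, Adipoq 0.61 and Ucp1 0.15. Ccl2 had -0.037 at a pseudocount of 0.1 and -0.056 by limma-voom. Leaving out 1 library gave -0.23 to 0.25 for Ccl2, -0.15 to 0.66 for Adgre1 and -1.33 to 0.25 for Adipoq. The cause was not tested. Of 975 list medians, 8 moved by more than the spread between libraries and 100 turned sign, in 24 of the 39 lists. Depth was alike across libraries; the median SE of 0.39 sets the limit.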
